A study of Homo sapiens with 34 samples.

Results

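The CD43- cells of a human embryonic stem cell culture undergoing haematopoietic differentiation were compared between day 12 and day 16. CD43, encoded by SPN, is a surface sialoglycoprotein that marks the first blood cells formed in such cultures, so the CD43- fraction is what remains of the culture beneath and around them. The comparison rested on 6 of the 34 samples of the series, 3 from day 12 and 3 from day 16, described by the study's methods as independent biological repeats. All 6 came from the H1 line, a single established embryonic stem cell line. Embryoid bodies were attached and spread as a sheet in defined medium, BMP4 and VEGF were given at the start, and after the first medium change VEGF was the only growth factor in the medium, with no haematopoietic cytokine added. The day 12 cells were sorted as CD43-, whereas the day 16 cells were sorted as CD43-CD45-, so the day and the use of CD45 in the gate cannot be told apart. CD43+ cells of the same days (given as CD43+ on day 12 and as CD43+/CD45+ on day 16), also 3 samples each, were used to ask which changes differed between the sorts. Whether the day 16 gate needed both markers is not stated. The methods name 2 sequencing companies without saying which samples went to which, so the sequencing provider and the day cannot be told apart either.

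The CD43- fraction of these cultures holds endothelial cells, which line vessels and from which the first blood cells bud, and mesenchymal cells, which lay down matrix and give rise to smooth muscle, pericytes and fibroblast-like stroma. Both cell types sense their surroundings through growth factor, Notch, WNT and BMP pathways, and both answer interferons, the cytokines that switch on antiviral genes. Mechanical or chemical stimulation of any of these cells induces the immediate early genes, a set of transcription factors whose transcripts appear within minutes and decay quickly.

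The deposited values were normalised read counts that had been adjusted for GC content and then forced to one common distribution, so every sample held the same set of numbers, with a median of 197 and a highest value of 90700. A value therefore gives the rank of a gene within its sample, the sequencing depth is unknown, and no counting interval can be given. Of 20255 genes, 19788 passed the filter on low values and were tested. A gene was called changed when limma's adjusted p was below 0.05 and the fold change on the log2(value + 1) scale was above 4. Correlation of log2 values across genes was 0.951 to 0.964 among the day 12 samples, 0.983 to 0.987 among the day 16 samples and 0.896 to 0.923 between days.

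Markers of the labelled cells were present. Type I and III collagens sat at the ceiling of the table in the CD43- cells, with COL1A1 and COL3A1 at 90700 in all 6 samples, so no change in either could be measured. The mesenchymal receptor PDGFRB read 6466, 5703 and 7630 on day 12 and 3244, 2956 and 4114 on day 16 (log2 change -0.94 ± 0.19 SE, adjusted p = 0.00018), short of the fold threshold. The endothelial adhesion genes CDH5 (4850, 4480 and 4380 on day 12, 6592, 8512 and 8281 on day 16) and PECAM1 (6820, 5909 and 4786, then 9496, 11198 and 10082) were present on both days. SPN itself read 122, 120 and 235 on day 12 and 84, 328 and 122 on day 16, against means of 6127 ± 1455 (SD, n = 3) and 2668 ± 288 in the CD43+ cells. PTPRC, which encodes CD45, read 4, 197 and 371 on day 12 and 18, 42 and 22 on day 16, against 9581 ± 3010 and 12655 ± 2945 in the CD43+ cells. The groups overlapped for both sort markers and neither was called (limma, adjusted p = 0.992 for SPN and 0.209 for PTPRC). The day 12 libraries differed among themselves: replicate 1 had almost no PTPRC and the highest mean level of 42 DNA replication and mitosis genes (mean log2 level 9.15, against 7.39 and 8.09 in replicates 2 and 3 and 7.61 to 7.80 on day 16), while replicates 2 and 3 carried leukocyte transcripts.

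In total, 2065 of the 19788 genes were called between day 12 and day 16 (10.4%), 883 higher (4.46%) and 1182 lower (5.97%). The balance differed by gene type. Among 16324 protein-coding genes, 670 were higher and 506 lower, whereas among 1596 antisense genes 94 were higher and 312 lower and among 1380 long intergenic non-coding genes 90 were higher and 287 lower. Groups that did not overlap were common: in 26.6% of genes the 3 day 16 values all lay above the 3 day 12 values, and in 21.5% all below. The plot of gene lists by median change has immediate early, macrophage and inflammatory genes at its lower end and interferon-response and blood lineage genes at its upper end.

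Immediate early genes fell. Of 37 immediate early and heat shock genes tested, 16 were called lower and none higher, against 5.97% of all genes lower. In 33 of the 37 all 3 day 16 values lay below the 3 day 12 values, against 21.5% of all genes. NR4A3, an orphan nuclear receptor induced by many stimuli (chr9:99821855-99866891, GRCh38), read 952, 1042 and 1734 on day 12 and 6, 1 and 10 on day 16, a log2 change of -7.81 ± 0.53 (adjusted p = 1.6e-11). FOSL1, which encodes the AP-1 subunit FRA1, read 527, 940 and 2477 and then 13, 22 and 17 (-5.90 ± 0.47, adjusted p = 2.91e-10). Neither gene's groups came near each other, and the levels on earlier days lay between: NR4A3 had means of 302 ± 68.1 on day 6 and 568 ± 245 on day 9, and FOSL1 of 127 ± 40.5 and 263 ± 28.4. The EGR zinc finger factors EGR2, EGR3 and EGR4 behaved alike, whereas EGR1, also tested, was not called. EGR3 read 1466, 1182 and 2095 on day 12 and 28, 104 and 95 on day 16 (-4.53), EGR2 read 714, 758 and 700 and then 64, 122 and 84 (-3.04), and EGR4, a low gene, read 34, 69 and 215 and then 2, 4 and 0 (-5.04). The stress-induced repressor ATF3 read 7764, 15836 and 10423 and then 788, 770 and 869 (-3.75 ± 0.28, adjusted p = 9.41e-11), and the nuclear receptor NR4A2 read 516, 458 and 633 and then 33, 44 and 58 (-3.57). In all of these the day 16 values lay below every day 12 value.

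The called set was not the whole list, although 36 of the 37 members were below 0. The other called members were NR4A1, KLF2, KLF4, KLF6, DUSP1, DUSP2, DUSP5, FOSB and IER3, so nuclear receptors, zinc finger factors of the KLF and EGR families and the phosphatases that shut off MAP kinases all took part. FOS, the archetypal immediate early gene, read 90700 (the ceiling), 90700 and 25776 on day 12 and 17284, 25776 and 25776 on day 16. The groups overlapped, and the change of -1.40 was not called (limma, adjusted p = 0.060). JUNB, an AP-1 partner, read 13998, 11186 and 13311 and then 8264, 8793 and 8673 (-0.58). None of the heat shock protein genes of the list was called. Outside the list, and chosen after their values were seen, 3 further induced regulators moved the same way: MAFF, a small MAF factor, read 4543, 5783 and 7773 and then 326, 332 and 309 (-4.19), TRIB1, a pseudokinase, read 6442, 8466 and 14638 and then 504, 598 and 686 (-3.97), and NOCT, a circadian phosphatase, read 768, 932 and 1736 and then 68, 45 and 60 (-4.22). C11orf96, a gene without an established role, read 1514, 1557 and 5760 and then 55, 38 and 124 (-5.20). CEBPB, an inducible bZIP factor from the stress list, fell by 2.78 on the log2 scale, and the kinase gene PLK3 fell by 2.32.

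The list behaved differently in the CD43+ cells. There 4 of the 37 were called higher and 1 lower, against 3.79% and 5.26% of all genes, and the median change was 0.32 against -1.40 in the CD43- cells. The difference between the changes of the sorts was called for 19 members, all lower in the CD43- cells, against 2.86% of all genes. EGR2 went opposite ways: in CD43+ cells it read 674, 291 and 480 on day 12 and 3748, 2754 and 3888 on day 16 (log2 change 2.91), a difference from the CD43- change of -5.95 ± 0.76 (adjusted p = 6.19e-06). EGR3 gave a difference of -5.84 and EGR4 one of -7.24. NR4A3 fell in both sorts, by 3.14 on the log2 scale in CD43+ cells, and still differed by -4.67 (adjusted p = 0.000115).

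**Figure D1:**
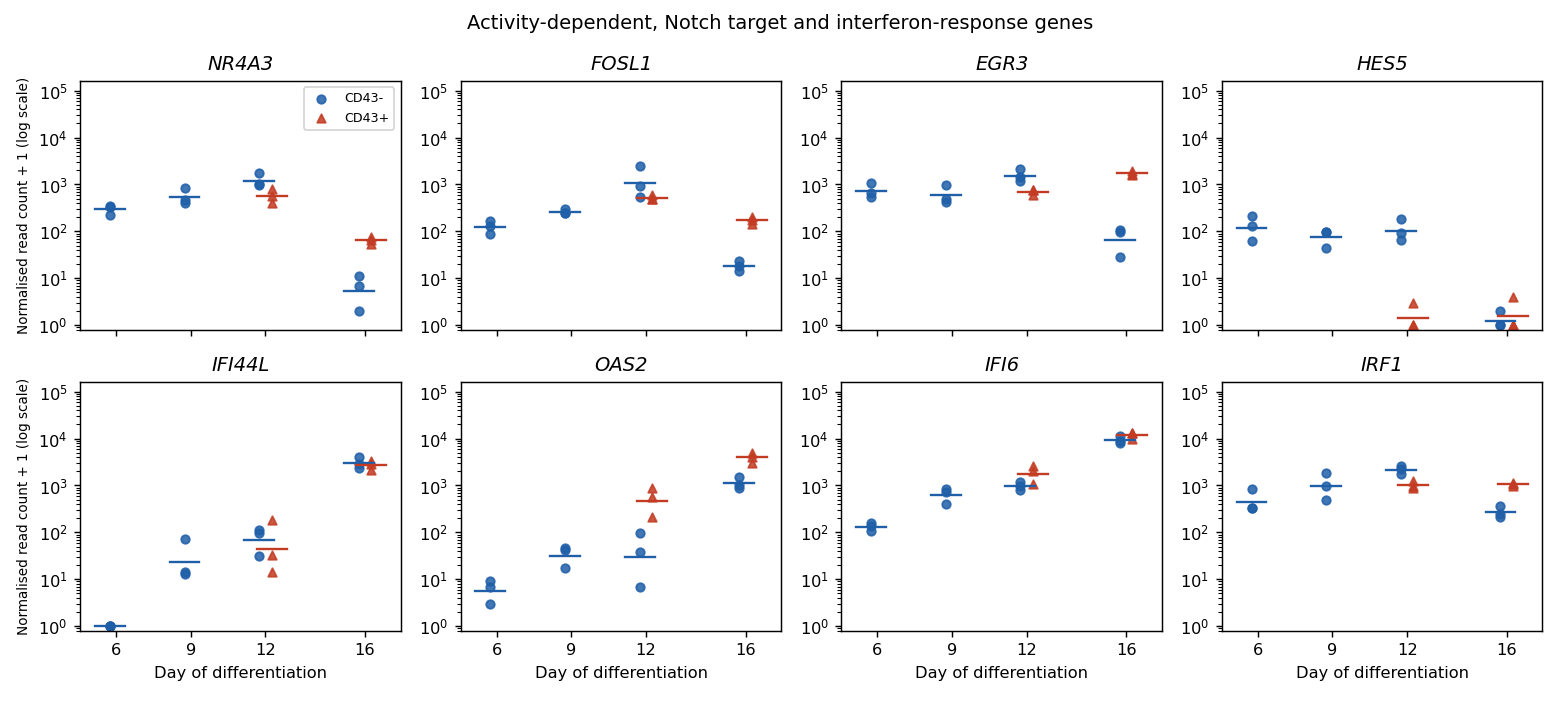
Normalised read counts plus 1 (log scale) against day of differentiation for 8 genes. Points are samples, 3 per population, and bars are geometric means, with CD43- cells as circles on days 6, 9, 12 and 16 and CD43+ cells as triangles on days 12 and 16. NR4A3, FOSL1, EGR3, HES5 and IRF1 drop in CD43- cells after day 12, while IFI44L, OAS2 and IFI6 are highest on day 16 in both sorts.

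Inflammatory mediators, many of which are induced through NF-kappaB, fell in part. Of the 29 tested, 8 were called lower and 2 higher, against 5.97% and 4.46% of all genes. The median was -1.23 against 0.08 for all genes. LIF, an IL-6 family cytokine, read 1383, 1134 and 2016 on day 12 and 124, 110 and 166 on day 16 (-3.47 ± 0.34, adjusted p = 7.14e-09). PTGS2, the inducible cyclooxygenase that makes prostaglandins, read 646, 506 and 959 and then 68, 98 and 154 (-2.74). Both had clear gaps between the days. The leukocyte adhesion molecule VCAM1 read 283, 16 and 76 and then 6, 8 and 8 (-3.12), and the matrix-binding protein TNFAIP6 read 26, 16 and 100 and then 4, 4 and 6 (-2.68). CXCL8, a neutrophil chemokine, read 41, 110 and 1314 and then 20, 18 and 22 (-3.13). The CXCL8 and TNFAIP6 calls needed day 12 replicate 3: without it the changes were -1.71 for CXCL8 and -1.94 for TNFAIP6. Without that library 4 of the 29 were called lower. With only the populations compared in the fit 5 were, and neither VCAM1 (adjusted p = 0.066) nor CXCL8 (adjusted p = 0.11) was among them. ICAM1, NFKBIZ and IL1RL1 completed the called falls. IL33, an alarmin of stromal and endothelial cells, rose from 13, 2 and 6 to 110, 82 and 194 (4.19 ± 0.78, adjusted p = 9.79e-05), and the neutrophil chemokine CXCL5 from 5, 0 and 6 to 28, 54 and 34 (3.46). In the CD43+ cells the list's median was 0.75, and PTGS2 there went from 1084, 545 and 874 to 2937, 2565 and 3988, so its difference between sorts was -4.69 (adjusted p = 1.46e-05).

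Of 24 genes of the Notch list, a contact-dependent receptor pathway that sets arterial and mural cell fate, 5 were called lower and none higher, against 5.97% of all genes lower, with a median of -0.36 and 8 members above 0. The 5 were HES or HEY repressors, and no receptor or ligand of the list was called. HES5 read 64, 90 and 184 on day 12 and 1, 0 and 0 on day 16 (-6.35 ± 0.62, adjusted p = 8.42e-09), after means of 133 ± 74.1 on day 6 and 78.3 ± 29.8 on day 9. HES1 read 5760, 6220 and 3527 and then 762, 835 and 763 (-2.67 ± 0.28), and HEYL read 825, 453 and 1534 and then 75, 141 and 180 (-2.73). The day 16 values of each were below its day 12 values. HES4 read 1158, 1293 and 1915 and then 323, 335 and 353 (-2.07), falling under the fold threshold without day 12 replicate 3 (-1.86). HES2, at 81, 20 and 14 and then 6, 2 and 8 (-2.36), fell under it without day 12 replicate 1 or day 16 replicate 2, and was not called with only the populations compared in the fit (adjusted p = 0.069). HES5 was close to 0 in CD43+ cells on both days and its change differed between sorts (-6.49, adjusted p = 1.22e-05), whereas HES1 changed by -1.26 in CD43+ cells and its difference was not called.

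Secreted signals changed gene by gene. In the WNT list 2 of 48 were called higher and 1 lower, against 4.46% and 5.97% of all genes. WNT2, a ligand of lung and cardiac mesoderm, read 752, 560 and 570 on day 12 and 46, 20 and 76 on day 16 (-3.88 ± 0.50, adjusted p = 6.79e-07), after means of 24 ± 14.2 on day 6 and 100 ± 74.5 on day 9. Its day 12 level was thus a peak in this series of days. NOTUM, a secreted enzyme that inactivates WNT proteins, rose from 6, 6 and 3 to 40, 24 and 36 (2.53), and WNT16 was called higher from 0 in all 3 day 12 samples, a call lost without day 16 replicate 3. Of 44 TGF-beta and BMP genes, 2 were called higher and 3 lower, close to the 4.46% and 5.97% of all genes. BMP6, an endothelial ligand that also controls hepcidin, rose from 116, 48 and 60 to 674, 1030 and 746 (3.51 ± 0.68, adjusted p = 0.000158), a level within the range of day 9 (1640, 204 and 1262), and GDF5, a joint-forming ligand, rose from 1, 2 and 0 to 11, 24 and 16 (3.24). The BMP antagonist GREM1 read 436, 72 and 394 and then 32, 56 and 24 (-2.69), the activin subunit INHBB read 72, 36 and 84 and then 4, 16 and 16 (-2.44), and GDF10 read 54, 11 and 32 and then 12, 4 and 4 (-2.02). The GREM1 call was lost without any of day 12 replicates 1 and 3 and day 16 replicates 1 and 3, and the GDF10 call without any of day 12 replicates 1 and 3 and day 16 replicates 2 and 3. The INHBB call was lost without day 16 replicate 1 (-1.85).

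Among ligands that act on blood cells, 2 of 23 were called lower (8.70%, against 5.97% of all genes) and none higher. Both were low: IL10 read 6, 16 and 20 and then 0, 2 and 2 (-2.71), and IGF1 read 56, 20 and 100 and then 10, 4 and 10 (-2.55). The IGF1 call was lost without day 12 replicate 3 or day 16 replicate 2. FGF23, the phosphate-regulating hormone of bone, was outside every list and was chosen after its values were seen: it rose from 8, 73 and 48 to 742, 754 and 686 (4.51 ± 0.71, adjusted p = 1.16e-05). The peptide hormones SST (492, 70 and 364, then 14, 6 and 6, log2 change -4.70) and KISS1 (77, 224 and 634, then 6, 4 and 45, -4.25) went down. Of the vasoactive genes, endothelin (EDN1) rose by a log2 change of 2.34, and RGS4, a brake on G protein signalling, rose from 1055, 8512 and 2706 to 37190, 29030 and 25876 (3.39 ± 0.62). NOS1, the neuronal nitric oxide synthase, read 20, 14 and 20 and was listed at 0 in all 3 day 16 samples. The prostaglandin receptor gene PTGER2 changed by -2.53. The PTGER2 call was lost without day 12 replicate 3 (-1.36).

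Interferon-response genes rose. Of 44 tested, 22 were called higher and 1 lower, against 4.46% and 5.97% of all genes. In 38 every day 16 value lay above every day 12 value, against 26.6% of all genes. IFI44L read 110, 94 and 30 on day 12 and 2329, 4080 and 2848 on day 16 (5.45 ± 0.65, adjusted p = 2.23e-07), and its neighbour IFI44 on chromosome 1 read 24, 12 and 10 and then 470, 989 and 728 (5.51 ± 0.68, adjusted p = 3.26e-07). OAS2 and OAS1, sensors of double-stranded RNA that activate RNase L, read 6, 96 and 38 and then 878, 1490 and 1040 (5.22), and 13, 42 and 50 and then 426, 542 and 376 (3.83). The lowest day 16 value of each was several times its highest day 12 value. The growth-limiting gene SAMD9L rose from 2, 2 and 6 to 30, 56 and 40 (3.39), and USP18, which removes ISG15 from proteins and damps the receptor, from 34, 20 and 10 to 178, 250 and 198 (3.37). Of the 44, 4 were below 0, and the one called lower was IRF1, an inducible transcription factor. It read 1716, 2566 and 2289 and then 217, 364 and 250 (-2.99 ± 0.33, limma, adjusted p = 5.46e-08). The counts held between 19 and 25 called higher when any 1 of the 6 samples was left out.

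The levels had been low at the start. IFI44L was listed at 0 in the 3 day 6 samples and at 71, 13 and 12 on day 9, and IFI6, a mitochondrial and endoplasmic reticulum protein that limits viral replication, had means of 133 ± 23.4 on day 6, of 653 ± 235 on day 9, of 978 ± 210 on day 12 and finally 9325 ± 1654 on day 16. The rise was shared by the CD43+ cells, where 18 of the 44 were called higher, against 3.79% of all genes, and the median was 1.88 against 2.01. The difference between sorts was called for 2 members, GBP1 and IRF1, both lower in the CD43- cells. That of IRF1 was the one in a gene called in CD43- cells (-3.02, adjusted p = 6.68e-05): in CD43+ cells it read 1266, 874 and 996 and then 1128, 968 and 1077.

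Interferons act on many of these genes through the interferon-stimulated response element, an upstream motif. Its core was written here as GAAA, a pair of any bases and GAAA, and searched on both strands of the 250 bases before the RefSeq start of each gene. A promoter sequence was found for 17 of the 22 genes called higher, and 11 of these 17 (64.7%) held the core, compared with 19 of 33 in the whole list (57.6%) and 330 of 12952 tested genes (2.55%). A match is a description of letters, not a bound site. The promoters of 4 genes are shown so that the element can be seen in genes that rose, namely IFI44, ISG15, IFI6 and IFIT1, which were chosen after the matches were known. They are RefSeq sequence of GRCh38.p14, printed 5′ to 3′ on the strand of the gene, without the bases that overlap an annotated exon, and capitals mark each match on either strand. ISG15 holds 2 overlapping matches, IFI6 holds 3 and IFIT1 holds 2.
IFI44 (chr1:78649539-78649788, plus strand): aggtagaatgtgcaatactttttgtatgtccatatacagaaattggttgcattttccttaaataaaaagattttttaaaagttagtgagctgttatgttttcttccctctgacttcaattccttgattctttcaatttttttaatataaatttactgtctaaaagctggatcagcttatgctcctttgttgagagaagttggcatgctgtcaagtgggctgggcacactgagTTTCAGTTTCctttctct
ISG15 (chr1:1013247-1013422, plus strand): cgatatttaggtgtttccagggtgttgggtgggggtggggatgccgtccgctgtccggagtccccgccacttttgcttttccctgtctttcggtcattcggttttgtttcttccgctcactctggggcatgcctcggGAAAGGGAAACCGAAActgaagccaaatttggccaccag
IFI6 (chr1:27672219-27672442, minus strand): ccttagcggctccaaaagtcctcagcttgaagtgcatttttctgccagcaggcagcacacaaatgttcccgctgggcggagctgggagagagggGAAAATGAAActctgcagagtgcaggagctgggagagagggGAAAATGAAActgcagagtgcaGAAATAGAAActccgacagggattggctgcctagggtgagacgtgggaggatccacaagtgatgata
IFIT1 (chr10:89392373-89392545, plus strand): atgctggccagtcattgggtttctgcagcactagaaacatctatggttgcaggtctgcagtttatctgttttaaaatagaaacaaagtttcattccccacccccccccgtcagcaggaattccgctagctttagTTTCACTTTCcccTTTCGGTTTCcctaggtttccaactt

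All 4 genes behind these promoters rose with no overlap between days. ISG15, a ubiquitin-like modifier, read 323, 324 and 404 on day 12 and 1518, 2218 and 1480 on day 16 (2.29 ± 0.19, adjusted p = 3.44e-10). IFI6 read 784, 1201 and 950 and then 8088, 11204 and 8684 (3.26 ± 0.33, adjusted p = 1.3e-08). IFIT1, which binds foreign 5′ RNA ends, read 160, 772 and 290 and then 2680, 4295 and 2960 (3.29 ± 0.53, adjusted p = 1.65e-05). For the 11 falling immediate early genes with a promoter sequence, the AP-1 site TGACTCA was found in 0, the cAMP response element TGACGTCA in 1 (DUSP1) and the serum response CArG box in 0, against 2.96%, 2.53% and 1.10% of the 12952 genes. The interferon-stimulated response element core was found in 1 of the 11 (EGR4), against 2.55%. With 11 promoters, counts of 0 or 1 are too small to be told apart from such shares.

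Antigen presentation genes, a set that overlaps the interferon targets in function, were called for 4 of 23, all higher, with a median of 0.96. The share of all genes called higher was 4.46%. In CD43+ cells 4 of the 23 were called higher as well, against 3.79% of all genes, with a median of 0.94. HLA-F rose from 6, 11 and 20 to 93, 104 and 88 (2.99 ± 0.45), the immunoproteasome subunit PSMB8 from 22, 38 and 38 to 130, 246 and 184 (2.47), and the peptide transporter TAP1 from 46, 51 and 110 to 300, 417 and 307 (2.39). HLA-DRB1, a class II chain, went from 12, 26 and 51 to 166, 162 and 147 (2.60), though reads may be shared with other DRB genes. None of the 4 differed between sorts at the thresholds. Of 19 complement genes C4A (2.89) and CFD (2.54) were called higher and CFI (-2.31) lower, against 4.46% and 5.97% of all genes. C4A shares most of its sequence with C4B, had overlapping groups and lost its call without day 12 replicate 3 (1.5), and the CFI call was lost without any of day 12 replicate 1, day 16 replicate 1 or day 16 replicate 2.

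Blood cell transcripts in the CD43- samples differed in direction by lineage with all samples included. Genes of red cells, platelets and granulocytes rose. The macrophage list had a median of -1.28, a direction that depended on replicates 2 and 3 of day 12. In bulk samples fewer cells of a type and less RNA per cell cannot be told apart. Of 24 macrophage genes, 9 were called lower and none higher, against 5.97% and 4.46% of all genes. In 5 of the 24 all day 16 values lay below all day 12 values, against 21.5% of all genes. CD163, the haemoglobin scavenger receptor of macrophages, read 32, 936 and 838 on day 12 and 19, 26 and 19 on day 16 (-3.74 ± 0.72, adjusted p = 0.000144). C1QA, a chain of complement C1q, read 12, 410 and 502 and then 8, 2 and 6 (-4.60), and the lipopolysaccharide co-receptor CD14 read 13, 249 and 337 and then 5, 2 and 6 (-4.40). C1QB (-4.32), C1QC (-3.75) and MS4A7 (-3.69) followed the same profile. Each was high in replicates 2 and 3 of day 12 and low in the other 4 samples. The list's mean log2 level was 3.04, 7.12 and 7.73 in the day 12 samples, 4.15 to 4.61 on day 16, 2.0 on day 9 and 10.9 and 11.7 in the CD43+ cells of days 12 and 16.

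The direction of the macrophage list therefore depended on those 2 libraries. Without replicates 2 and 3 of day 12, none of the 24 was called lower and 8 were called higher, with 18 of the 24 above 0 and a median of 1.72. Without replicate 1, 16 were called lower. With only the populations compared in the fit 1 was called lower, and with only the 6 samples and the replicate number as a block none was. CD36, a scavenger receptor shared with platelets and fat cells, had the same shape at 30, 768 and 1400 and then 20, 25 and 24 (-3.75), as did SPP1 (osteopontin) at 154, 3326 and 3000 and then 143, 140 and 180 (-2.91), whose call was lost without either of those replicates. PTPRC and the actin bundler LCP1 (473, 1130 and 1488, then 425, 1020 and 709) were not called. Of 20 pan-leukocyte genes, RAC2 (2.02) and EVI2B (2.06) were called higher and none lower, against 4.46% and 5.97% of all genes. RAC2 was not called without day 12 replicate 1 or day 16 replicate 2, nor EVI2B without any of day 12 replicates 1 and 2 and day 16 replicates 2 and 3. Immediate early genes were high in all 3 day 12 libraries: that list's mean log2 level was 11.76, 12.02 and 12.17 in the 3 day 12 samples and 9.86 to 10.10 on day 16. Without replicates 2 and 3 of day 12, 13 of its 37 members were called lower, against 16 with all samples.

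Erythroid and megakaryocyte genes rose in 21 of 28 cases, against 4.46% of all genes, with none called lower. In 22 of the 28 all day 16 values lay above all day 12 values, against 26.6% of all genes. With only the populations compared in the fit 18 were called, without HBA1 (adjusted p = 0.052), HBZ (0.056) or PLEK (0.104), and with only the 6 samples and the replicate block 15. PF4, the platelet chemokine, read 0, 14 and 136 on day 12 and 1062, 3224 and 1582 on day 16 (7.11 ± 0.90, adjusted p = 4.89e-07), and PPBP, a second platelet chemokine, read 1, 20 and 252 and then 1124, 3606 and 1902 (6.49). The platelet receptor subunit GP9 rose from 2, 4 and 30 to 352, 921 and 511 (6.15) and the platelet tubulin TUBB1 from 1, 6 and 28 to 241, 1077 and 530 (6.13). SELP, stored in platelets and endothelial cells, rose from 3, 6 and 22 to 202, 650 and 424 (5.47). Among the globins, fetal HBG2 rose from 0, 25 and 70 to 1620, 4148 and 2876 (7.77 ± 0.93, adjusted p = 2.19e-07), embryonic HBE1 from 2, 25 and 78 to 836, 1090 and 1819 (6.01) and embryonic HBZ from 1, 46 and 111 to 632, 416 and 1448 (5.05). HBA1 (5.85) and HBA2 (7.03) rose as well, and reads may be divided between these near-identical copies and between HBG2 and HBG1. In each of these genes day 12 replicate 3 was the highest of its day, except in HBA2, where replicate 1 was. PLEK, a platelet protein kinase C substrate, rose from 1, 66 and 293 to 435, 1855 and 950 (4.75).

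Genes of neutrophils, eosinophils and mast cells rose in 19 of 25 cases, against 4.46% of all genes. With only the populations compared in the fit 9 were called higher. PRG2, the eosinophil major basic protein, read 0, 10 and 473 on day 12 and 765, 3658 and 1674 on day 16 (6.59 ± 1.35, adjusted p = 0.000272), and eosinophil peroxidase EPX read 0, 1 and 30 and then 102, 521 and 318 (6.03). The neutrophil proteases ELANE (1, 2 and 11, then 68, 354 and 200, log2 change 5.35) and CTSG (0, 0 and 18, then 46, 286 and 114, 5.44) did not overlap, whereas PRTN3 (0, 22 and 1172, then 760, 4152 and 1824, 5.90) did, and LYZ did too. Day 12 replicate 3 was the highest of its day for each. The granule enzymes MPO (16, 324 and 4608, then 4657, 12840 and 8970, 4.79) and LYZ (4, 64 and 1089, then 1066, 6253 and 2704, 5.21) were at the ceiling of 90700 in every CD43+ sample. The lineage factors rose with them. GATA1, required for red cells, platelets and eosinophils, went from 0, 0 and 14 to 83, 232 and 134 (5.81 ± 0.62, adjusted p = 3.23e-08), GFI1B from 14, 10 and 20 to 180, 464 and 240 (4.17), GFI1 from 3, 2 and 12 to 28, 90 and 42 (3.17) and MYB from 6, 7 and 16 to 25, 234 and 75 (2.98). The other 6 of the 10 haematopoietic factors were not called, so 4 of the 10 were higher, against 4.46% of all genes.

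**Figure D2:**
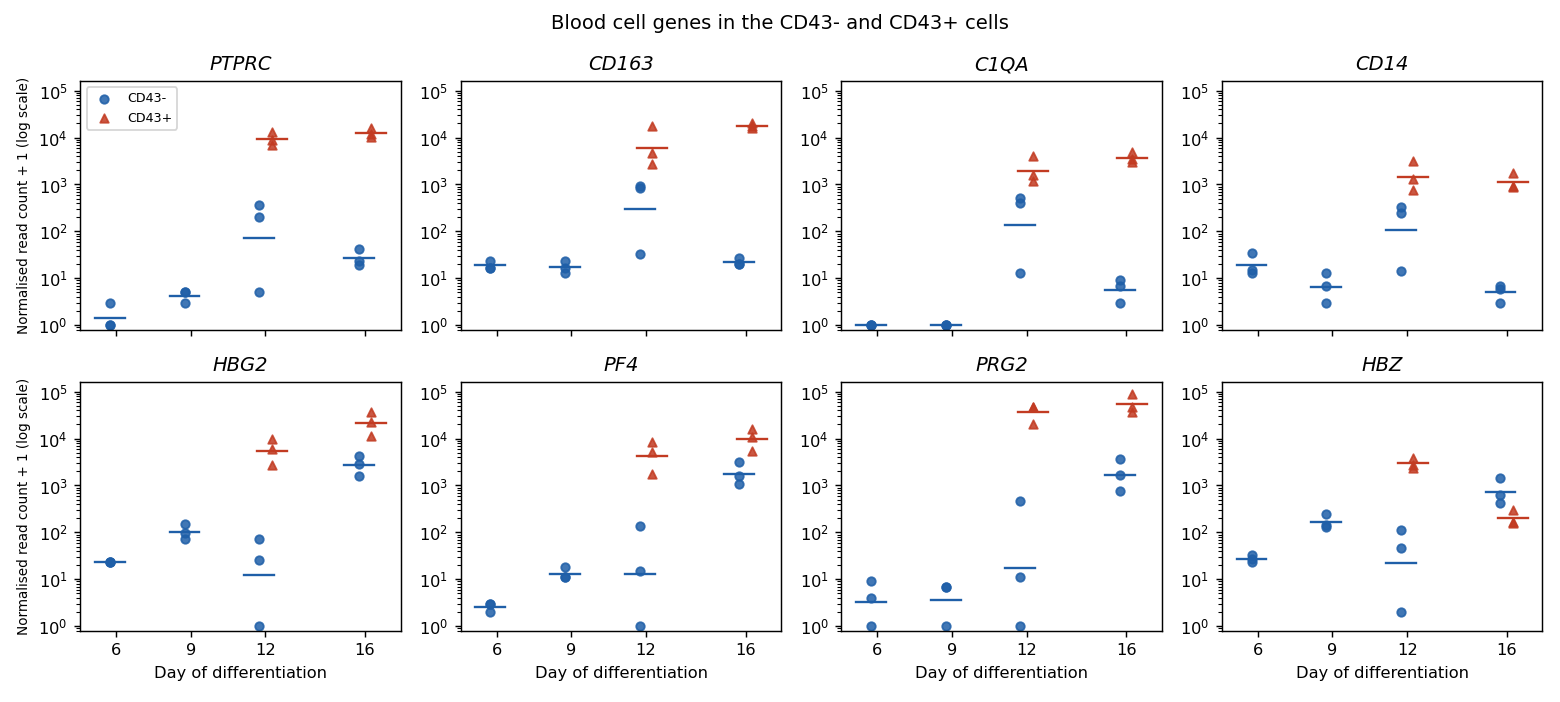
Normalised read counts plus 1 (log scale) against day for 8 blood cell genes. Points are samples, 3 per population, and bars are geometric means, with CD43- cells as circles and CD43+ cells as triangles. CD163, C1QA and CD14 are high in CD43- cells in replicates 2 and 3 of day 12 alone, whereas HBG2, PF4, PRG2 and HBZ are highest on day 16, and HBZ is then above the CD43+ samples.

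Blood transcripts were also compared with the CD43+ cells of the same day. On day 16 GP9 averaged 595 ± 294 in the CD43- sort against 4752 ± 2739 in the CD43+ sort, and HBG2 averaged 2881 ± 1264 against 23825 ± 12864. HBZ went the other way: its 3 day 16 values in CD43- cells lay above those of the CD43+ cells (163, 158 and 302), which had been 2378, 3854 and 2770 on day 12. The embryonic globin thus fell in one sort and rose in the other, with a difference of 8.93 ± 1.2 (adjusted p = 1.16e-05). HBA2 went from 636, 872 and 724 to 258, 342 and 232 in CD43+ cells, where it was not called, and its difference was 8.46. The difference between sorts was called for 19 of the 28 erythroid and megakaryocyte genes and 15 of the 25 granulocyte and mast cell genes, all higher in the CD43- cells, against 2.17% of all genes. Of the 883 genes called higher on day 16 in CD43- cells, 276 (31.3%) had also been called higher in CD43+ than in CD43- cells on day 9, which is 16.1% of the 1711 such genes (8.65% of all genes tested). Leaving all 1711 out left 607 genes higher and 1075 lower. The part of blood cells within the gate in these rises was not tested.

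Of 31 endothelial identity genes 1 was called higher, against 4.46% of all genes, and none lower. It was STAB2, a scavenger receptor of sinusoidal endothelium, at 24, 98 and 286 and then 251, 570 and 858 (2.48, limma, adjusted p = 0.0215). Its groups overlapped, and the call was lost without day 12 replicate 1, day 16 replicate 2 or day 16 replicate 3. The list's median was 0.75, and 28 of the 31 were above 0. KDR, the main VEGF receptor, read 13311, 29000 and 14002 and then 29000, 37166 and 37166 (0.96), and the endothelial factor ERG 886, 766 and 986 and then 1130, 1184 and 1293 (0.46). Neither was called. By limma none of 18 arterial, venous and lymphatic genes and none of 12 pericyte genes was called, although 3 and 4 of them had an unadjusted p below 0.05.

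Of 30 mesenchymal and mesodermal transcription factors, 2 were called higher and 3 lower, near the shares of all genes (4.46% and 5.97%). TWIST1, an early mesoderm and neural crest factor, read 1052, 220 and 568 on day 12 and 113, 97 and 104 on day 16 (-2.27), PRRX2 read 186, 26 and 106 and then 8, 6 and 26 (-2.77), and FOXD1, a stromal progenitor factor, read 52, 29 and 274 and then 8, 8 and 6 (-3.20 ± 0.63, adjusted p = 0.000188). The TWIST1 call was lost without day 12 replicate 1 (-1.75). WT1, a factor of mesothelium and epicardium, rose from 8, 1 and 4 to 34, 86 and 40 (3.48 ± 0.61), as did MSLN, a mesothelial surface protein from the mesothelial list, from 12, 102 and 24 to 266, 240 and 245 (2.96). The groups of PRRX2 overlapped. NKX2-3, a splanchnic mesoderm factor, went from 27, 120 and 54 to 248, 250 and 284 (2.19), a call lost without day 12 replicate 1, day 12 replicate 3 or day 16 replicate 3. From the osteochondral list RUNX2, the osteoblast factor, rose from 36, 95 and 117 to 314, 536 and 378 (2.42), again lost without day 12 replicate 1.

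Of 22 smooth muscle genes 2 were called lower and none higher (9.09% lower, against 5.97% of all genes), with a median of -0.42. Both were low genes. KCNMB1, a subunit of the BK potassium channel, read 86, 19 and 58 and then 2, 1 and 2 (-4.16 ± 0.58), and MYH11 read 72, 20 and 54 and then 14, 11 and 6 (-2.02), a call lost on leaving out day 12 replicate 1 or 3 or day 16 replicate 3. Of 21 cardiac genes 4 were called higher, against 4.46% of all genes. They were led by troponin TNNI3 at 4, 12 and 12 and then 108, 120 and 96 (3.52 ± 0.51, adjusted p = 3.71e-06). TNNI3 was higher still in CD43+ cells, at 128, 344 and 249 on day 12 and 387, 700 and 194 on day 16. The cardiac myosins were near 0, with MYH7 at 0, 0 and 1 and then 6, 10 and 12 and MYH6 at 0, 1 and 8 and then 7, 26 and 16, and the MYH6 call failed without any of day 12 replicates 1 and 2 and day 16 replicates 2 and 3. LDB3 was called higher (2.17) with overlapping groups, and failed without any of day 12 replicates 2 and 3 and day 16 replicates 1 and 2.

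Of 28 fibrillar collagen genes only COL24A1 was called, against 4.46% of all genes higher and 5.97% lower. It rose from 46, 8 and 26 to 210, 1037 and 474 (4.38 ± 0.63), and it was higher still in CD43+ cells (1839 ± 1336 on day 12 and 9073 ± 5965 on day 16). Of 26 basement membrane genes 2 were called higher and 2 lower, against the same shares of all genes, with a median of -0.06. The laminin chain LAMA2 read 2981, 5316 and 5706 and then 304, 277 and 808 (-3.46 ± 0.44, adjusted p = 4.96e-07), and the chain LAMA3 read 153, 182 and 78 and then 20, 24 and 28 (-2.40). LAMA2 had averaged 45.7 ± 7.77 on day 6 and 597 ± 387 on day 9, so day 12 was its highest point. COL4A4 rose from 1, 4 and 0 to 16, 14 and 12 (2.79). NPNT, an integrin ligand, read 3758, 48061 and 4615 and then 48061 in all 3 day 16 samples, so replicate 2 of day 12 was already at the day 16 value, and the call (2.35) failed on leaving out any sample except that one. EFEMP1, an elastic fibre protein, rose from 412, 277 and 136 to 1658, 2232 and 1777 (2.90), while CTGF, a YAP and TGF-beta target, read 25776, 37130 and 90700 and then 6791, 8780 and 8656 (-2.46), with -1.95 without day 12 replicate 3. The protease gene MMP19 read 230, 451 and 686 and then 52, 60 and 64 (-2.81). FAP changed by -2.08, a call lost without any of 5 samples, all but day 12 replicate 2.

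Yolk sac and liver type endoderm genes, which mark a further cell type of such cultures, were called higher for 6 of 26 and lower for 1. The shares of all genes were 4.46% and 5.97%. The apolipoprotein APOA4 rose from 302, 596 and 112 to 3540, 1917 and 2880 (3.30 ± 0.76, adjusted p = 0.000943), the thyroxine carrier TTR from 107, 237 and 60 to 993, 473 and 844 (2.66), the fibrinogen chain FGA from 24, 52 and 18 to 182, 90 and 294 (2.54), the antiprotease SERPINA1 by a log2 change of 2.1 and the endoderm factor FOXA3 from 2, 8 and 0 to 32, 19 and 24 (3.09). AFP, the defining yolk sac protein, read 3490, 9499 and 2522 and then 17368, 10084 and 15868, a change of 1.68 under the fold threshold (adjusted p = 0.0353). The early endoderm antagonist CER1 read 136, 2 and 6 and then 2, 1 and 4 (-2.19), with overlapping groups and no call without day 12 replicate 1 or day 16 replicate 1 or 2. The FGA and SERPINA1 calls were lost without day 12 replicate 3, FGA also without day 16 replicate 3 and SERPINA1 without day 16 replicate 1. Without day 12 replicate 3 in all, 3 of the 26 were called higher. In CD43+ cells 10 of the 26 were called higher, against 3.79% of all genes, with AFP there at 30, 68 and 88 and then 462, 446 and 193.

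Among epithelial genes 4 of 22 were called lower, and among trophoblast genes 3 of 12, against 5.97% of all genes, with none higher. CGA, the glycoprotein hormone alpha chain, read 58, 54 and 14 and then 0, 0 and 8 (-4.13), the keratins KRT14 13, 68 and 4 and then 1, 0 and 0 (-3.75) and KRT23 43, 16 and 16 and then 6, 0 and 2 (-3.08), and KRT7, on both lists, 742, 243 and 120 and then 60, 22 and 76 (-2.56). OVOL1 (-2.16) and the aromatase gene CYP19A1 (-2.53) completed these. Some of these calls rested on single samples: KRT7 and OVOL1 on day 12 replicate 1 and day 16 replicate 2, and CYP19A1 on day 16 replicate 1. In lipid handling, lipoprotein lipase (LPL) rose from 20, 396 and 168 to 1268, 1680 and 1510 (3.72 ± 0.71, adjusted p = 0.000128), near its day 9 level of 1534 ± 926, and HMGCS1, of cholesterol synthesis, changed by -2.0, a call lost without day 12 replicate 1 or 3 or day 16 replicate 2. The retinoid enzymes ALDH1A2 (583, 38 and 57, then 13, 16 and 18, -2.73) and RDH10 (2216, 478 and 788, then 118, 96 and 147, -2.98) fell, ALDH1A2 with no call without day 12 replicate 1 (-1.52). CA9, the hypoxia-induced carbonic anhydrase, was the one of 31 hypoxia and glycolysis genes called (3.23% higher, against 4.46% of all genes). It rose from 2, 3 and 5 to 52, 30 and 46 (3.36 ± 0.49). In other lists IGFALS (3.29), GDF15 (2.05), AKR1C3 (2.15), NTN4 (2.88), EPHA3 (2.12), SOX2 (2.58), LEFTY1 (3.42), ELAVL3 (3.57) and SOX10 (2.95) were called higher and NANOG (-3.54), CDKN2B (-2.42) and SEMA3E (-2.38) lower. Of these, the calls of SOX2 and CDKN2B were lost without day 12 replicate 3, GDF15 without day 12 replicate 1, SEMA3E without day 12 replicate 2, AKR1C3 without either of day 12 replicates 2 and 3 and EPHA3 without day 12 replicate 3 or day 16 replicate 2. By limma none of 42 DNA replication and mitosis genes and none of 79 ribosomal protein genes was called, with 19 and 37 of them at an unadjusted p below 0.05.

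The calls among HOX genes, whose position in their 4 clusters matches where along the body axis they act, separated by paralog group. Of 38 tested, 9 were called lower and 3 higher, against 5.97% and 4.46% of all genes. All 9 called lower belonged to paralog groups 9 to 13, the posterior end of the clusters, and all 3 called higher to groups 1 to 8. Of 16 genes in groups 9 to 13, 15 were below 0, with a median of -2.41, and of 22 genes in groups 1 to 8, 15 were above 0, with a median of 0.81. HOXD11 read 484, 12 and 147 on day 12 and 1, 2 and 0 on day 16 (-5.75 ± 1.15, adjusted p = 0.000206), HOXD9 read 240, 14 and 95 and then 1, 0 and 3 (-5.13) and HOXA10 read 876, 357 and 340 and then 103, 66 and 144 (-2.24). HOXB5 rose from 95, 223 and 112 to 606, 573 and 524 (2.08 ± 0.31, adjusted p = 6.62e-06), HOXC5 from 10, 19 and 0 to 104, 73 and 80 (3.83) and HOXB1 from 6, 45 and 4 to 82, 72 and 48 (2.51). All 8 HOXB genes of groups 1 to 8 had the 3 day 16 values above the 3 day 12 values, with changes of 0.93 to 2.51. The same held for 26.6% of all genes. The 7 genes of groups 1 to 8 below 0 all belonged to the other clusters. In CD43+ cells 5 of the 38 HOX genes were called higher and none lower, against 3.79% and 5.26% of all genes. HOXB5 changed by 2.58 there. The HOXA10 call was lost without day 12 replicate 1 or day 16 replicate 2, that of HOXB5 without day 12 replicate 1 or 3 and that of HOXB1 without day 12 replicate 3. Day 12 replicate 2 held the lowest posterior levels of its day (mean log2 level 4.37, against 7.56 and 5.92), though still above day 16 (2.96 to 3.63). Leaving out single samples gave 6 to 11 posterior genes called lower. With only the populations compared in the fit 6 were called lower, and with only the 6 samples and the replicate block 3, while 1 gene of groups 1 to 8 was called higher under both. The grouping by paralog number was made after the values were seen.

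**Figure D3:**
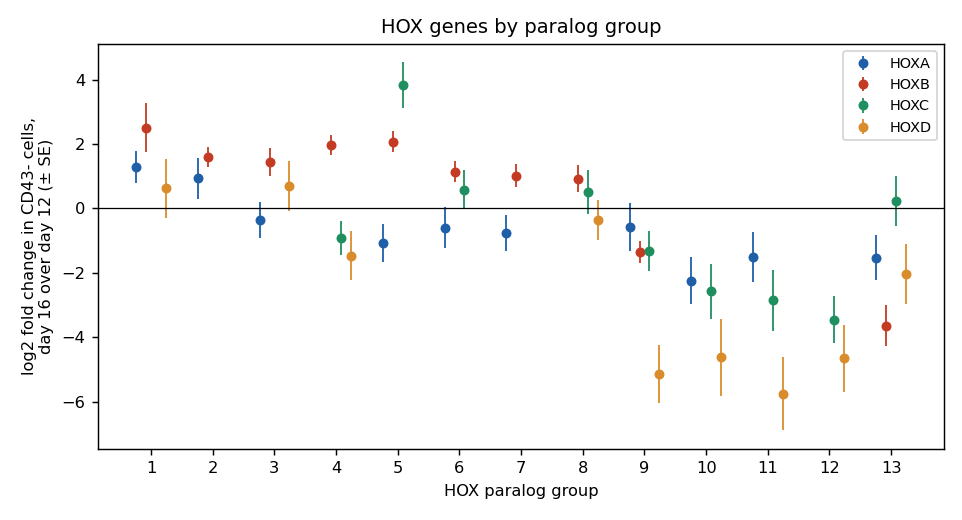
Log2 fold change of each tested HOX gene in CD43- cells (day 16 over day 12, ± SE) against its paralog group, coloured by cluster. Groups 9 to 13 lie below 0 apart from 1 gene, and the HOXB genes of groups 1 to 8 all lie above 0.

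Some of the largest falls were in genes that may share reads with other loci. MTRNR2L10, a nuclear copy resembling mitochondrial 16S ribosomal RNA, read 1467, 1510 and 1726 on day 12 and 2, 0 and 0 on day 16 (-10.08 ± 0.43, adjusted p = 1.13e-15), MTRNR2L3 read 236, 358 and 696 and then 1, 2 and 2 (-7.22) and MTRNR2L6 read 575, 1270 and 1572 and then 12, 10 and 10 (-6.49). All 3 were also called lower in CD43+ cells, by log2 changes of -8.96, -5.92 and -5.90, and MTRNR2L10 there read 5198, 4850 and 3898 and then 8, 10 and 7. The clone-named gene AC104534.3 (215, 434 and 669, then 0, 1 and 0) and RGPD1, one of several near-identical RANBP2 copies (562, 653 and 1584, then 10, 52 and 27), also fell, and TBC1D3D, of another duplicated family, was called higher (260, 0 and 0, then 378, 323 and 276, log2 change 5.66). FRK, a single-copy tyrosine kinase gene, read 702, 612 and 758 and then 32, 30 and 28 (-4.48 ± 0.22, adjusted p = 1.52e-14). The receptor phosphatase PTPRT read 492, 468 and 540 and then 13, 10 and 18 (-5.13). FRK was called lower in the CD43+ sort too, from 626, 594 and 573 to 76, 66 and 73 (-3.04). Its day 9 means were 63 (CD43-) and 99.3 (CD43+), so day 12 stood above both neighbouring days in each sort. The same held for MTRNR2L10, with day 9 means of 33.3 and 97.3, RGPD1 (86.3 and 78.7) and AC104534.3 (70.3 and 0). MTRNR2L6 was already at 571 and 1420 on day 9. PTPRT stayed near 0 in the CD43+ sort. The cause of the shared day 12 peaks was not tested.

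Genes known by a clone name alone, most of them non-coding, made up 46.4% of the genes called lower and 12.6% of those tested. Of 2500 tested, 549 were called lower and 171 higher, and 388 of the 549 were called lower in the CD43+ cells as well. With a pseudocount of 10, 144 were called lower and 15 higher. With only genes reaching 100 in 3 or more samples, 135 were called lower and 24 higher. Of all 1182 genes lower in CD43- cells, 645 (54.6%) were lower in CD43+ cells, which is 62.0% of those called lower there, while 234 of the 883 higher genes (26.5%) were higher in both, 31.2% of those called higher in CD43+ cells. In protein-coding genes the shared part of the falls was 183 of 506 (36.2%). Falls of non-coding genes lay at lower values: the median day 12 level of the antisense genes called lower was 23 and that of the long intergenic ones 21.3, against 129 for protein-coding genes. Strandedness of the libraries is not given in the sources used here, so reads of antisense genes and their partners cannot be told apart.

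The change from day 12 to day 16 differed between CD43- and CD43+ cells for 995 genes (5.03%), 429 with the higher change in CD43- cells and 566 with the lower. Among the 506 protein-coding genes that fell in CD43- cells the difference was called for 172 (34%), and among the 670 that rose for 160 (23.9%). Among protein-coding genes called in CD43- cells with a mean of at least 300 there on one day, the 5 largest positive differences were in HBZ (8.93), PRTN3 (6.27), PRG2 (6.0), PF4 (5.90) and HBG2 (5.79), all blood lineage genes, and the 5 largest negative ones in EGR2 (-5.95), EGR3 (-5.84), SST (-5.63), C1QA (-5.53) and CD163 (-5.30). In the plot of change by sort the erythroid, megakaryocyte and granulocyte genes thus stand high above the diagonal, the immediate early and macrophage genes below it, and the interferon-response genes along it. The direction of the macrophage genes in CD43- cells depended on which day 12 libraries were included. Of the 2065 genes called in CD43- cells, 10 were called with the opposite sign in CD43+ cells.

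**Figure D4:**
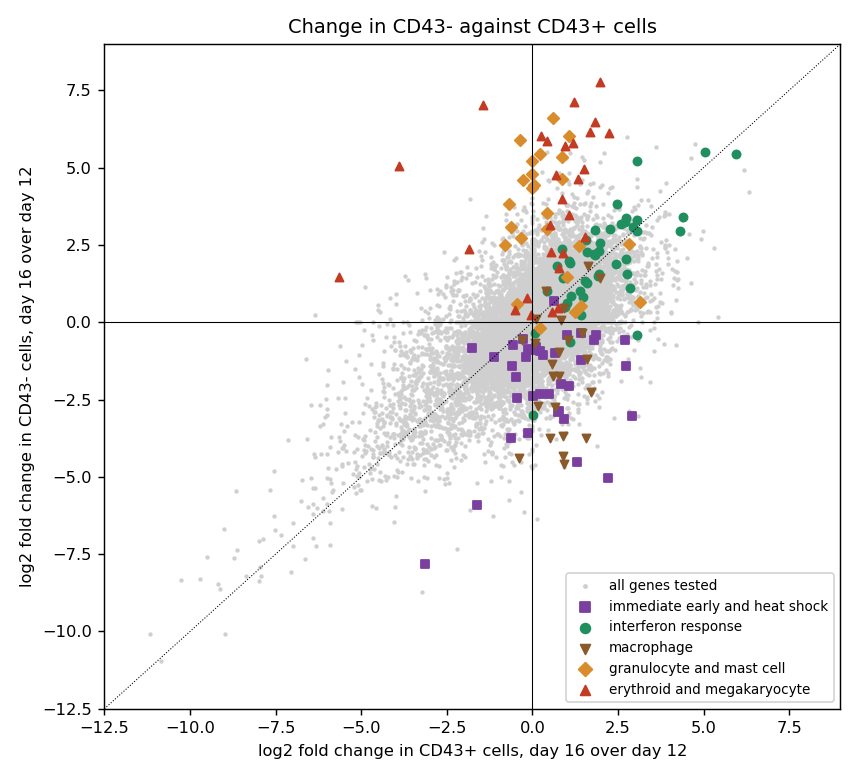
Log2 fold change from day 12 to day 16 in CD43- cells (vertical axis) against CD43+ cells (horizontal axis), 1 point per gene tested, with 5 gene lists coloured and equal change dotted. Erythroid, megakaryocyte and granulocyte genes lie above the dotted line, immediate early and macrophage genes below it, and interferon-response genes close to it. The direction of the macrophage genes in CD43- cells depended on which day 12 libraries were included.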

How the data were processed

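Bulk RNA-seq of cells sorted from H1 cultures was analysed as deposited. The authors counted reads per gene, adjusted the counts for GC content by full-quantile normalisation and rounded them, so the deposited values were treated as a score and not as raw counts. The deposited table also gives the GC content of each gene in percent. The submitters' processing notes list bcl2fastq, STAR 2.7, Bowtie2 and RSEM with build hg38, without their roles. One sample without replicates stayed outside the fit.

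The test was limma 3.58.1 (R 4.3.3, eBayes with a trend) on values plus 1 in log2, fitted over 33 samples of 11 populations (22 residual degrees of freedom), since a count model does not apply. Genes had to reach 10 in 3 or more samples, which 467 did not. P-values were adjusted by Benjamini-Hochberg over all 19788 genes, and SE is limma's. On simulated data, 97 of 100 genes with a log2 change of 3 were recovered. Named genes were the 15 largest protein-coding rises and falls with groups apart and a mean of at least 300, up to 6 called members of each list, and the 5 largest differences from CD43+ cells in each direction. A few genes that this rule picked are not reported here. The members, the gene lists and the tests were chosen with earlier results of these data known. Alternatives were other pseudocounts, filters, scalings, sample sets and the replicate block. Promoter sequences come from RefSeq.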

Additional observations from a re-analysis of the deposited data

Results flagged for a closer look

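The change from day 12 to day 16 in CD43- cells differed from that in CD43+ cells for 995 genes by the test of the difference itself, a limma contrast fitted across all genes. The values here are the differences of log2 changes (CD43- minus CD43+), and those of genes described above were as follows. Among immediate early and related regulators, they were -4.67 for NR4A3, -4.28 for FOSL1, -5.95 for EGR2, -5.84 for EGR3, -7.24 for EGR4, -3.14 for ATF3, -3.45 for NR4A2, -4.14 for FOS, -2.36 for JUNB, -3.02 for MAFF, -4.07 for TRIB1, -3.54 for NOCT, -3.60 for C11orf96 and -2.31 for CEBPB. Among inflammatory and interferon genes, they were -4.69 for PTGS2, -2.28 for LIF, -4.30 for VCAM1, 3.33 for IL33 and -3.02 for IRF1. Among Notch, WNT and activin genes, they were -6.49 for HES5, -3.19 for WNT2 and -3.35 for INHBB. Among macrophage-list genes and CD36, they were -5.53 for C1QA, -5.20 for C1QB, -4.28 for C1QC, -4.02 for CD14, -5.30 for CD163, -4.58 for MS4A7 and -3.67 for CD36. Among erythroid and platelet genes, they were 5.79 for HBG2, 8.46 for HBA2, 5.43 for HBA1, 5.76 for HBE1, 8.93 for HBZ, 5.90 for PF4, 4.66 for PPBP, 4.46 for GP9, 3.88 for TUBB1, 4.07 for PLEK and 4.37 for SELP. Among granulocyte genes and blood lineage factors, they were 6.0 for PRG2, 4.96 for EPX, 6.27 for PRTN3, 5.20 for CTSG, 4.5 for ELANE, 4.79 for MPO, 5.21 for LYZ, 4.62 for GATA1, 2.58 for GFI1B and 3.63 for GFI1. Among stromal, muscle and matrix genes, they were -2.70 for FOXD1, -3.12 for PRRX2, -4.03 for TWIST1, -2.87 for KCNMB1, 2.77 for TNNI3, -2.71 for LAMA2, -3.91 for LAMA3 and 3.35 for COL4A4. Among HOX genes, they were -5.08 for HOXD11, -3.94 for HOXD9 and 3.83 for HOXC5. Among the remaining genes, they were 2.42 for FOXA3, -2.85 for KRT23, 4.26 for LPL, -4.46 for PTPRT, -2.55 for RGPD1, -5.63 for SST, -4.14 for KISS1, -2.69 for RDH10, -3.47 for ALDH1A2, -4.40 for KRT7, -2.79 for CDKN2B, -2.83 for SEMA3E, 4.05 for SOX2, 3.77 for ELAVL3, 2.67 for EPHA3 and -2.38 for OVOL1. MPO and LYZ were at the ceiling of the table in every CD43+ sample, so their CD43+ change could not be measured.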

How the results depend on the processing

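Across the 2065 genes called in CD43- cells (883 higher, 1182 lower) and the 995 called in the difference from CD43+ cells (429 higher, 566 lower), the pseudocount, the filter, the fold threshold and the populations fitted moved counts by over 1.5 times. With a pseudocount of 10 the counts were 707 (250 higher, 457 lower) and 473 (186 higher, 287 lower). With only genes reaching 100 in 3 or more samples they were 976 (459 and 517) and 630, of which 247 were higher. With a fold threshold of 2 they were 4764 (2387 and 2377) and 1951 (843 and 1108). Protein-coding genes alone gave 1176, of which 506 were lower. With only the populations compared in the fit, the difference was called for 561 genes (236 and 325). The replicate numbers did not pair the samples (correlation of deviations of same-numbered samples 0.137, 0.068 and 0.032), and a replicate block gave 2068 and 1002 genes. The replicate block with only the 6 samples gave 1448, of which 538 were higher. The causes of these shifts were not tested.

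Leaving out 1 sample at a time gave 1942 to 2320 genes (824 to 1032 higher, 1115 to 1288 lower), and 853 to 1119 for the difference. Chosen after seeing the data, leaving out replicates 2 and 3 of day 12 gave 2481 and 1281 genes, with the lone day 12 sample assumed to vary like the other groups, and leaving out genes higher in CD43+ cells on day 9 gave 1682. Without those replicates PTPRC changed sign (2.41), as did LCP1 (0.51), LDB3 (-0.14) and SPN (0.30). SPN also did without day 12 replicate 3 (0.31), day 16 replicate 1 (0.40) or day 16 replicate 3 (0.14). Its values without 1 sample ran from -0.57 to 0.40, and it was never called. Over the 169 named genes and all alternatives, 2727 of 3017 values kept their direction and side of the threshold and 280 kept the direction and lost the call. By gene the picture was weaker: 73 of the 169 neither lost a call nor changed direction under any alternative. With only the 6 samples and the replicate block 63 genes lost their call, and with a pseudocount of 10, 41 did. Depth is unknown, values at 90700 are capped, and low values move most with the pseudocount.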
